A study of Mus musculus with 188 samples.

Results

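The genes described here are 32 enzymes and regulators of sterol and fatty acid synthesis, chosen by gene symbol from the 25655 genes listed for sequencing batch 1 and the 25528 listed for batches 2 and 3. All 32 were listed in every library and all 32 passed the filter on low counts, so no gene of the list is missing below. Messenger RNA was sequenced from organotypic brain slice cultures (BSC), coronal slices of young adult wild-type C57BL/6J mice of both sexes that were kept in pairs on membrane inserts and treated on culture day 7. Of 188 libraries, 167 fell into 18 groups. Batch 1 held 10 libraries each of untreated control, heme-albumin at 12.5, 50, 200 and 400 µM, and hemeHpx (heme bound to hemopexin) at 200 µM, all at 24 h. Batches 2 and 3 held controls (10 libraries at 24 h, 9 at 48 h), hemoglobin (Hb) at 200 and 400 µM (10 libraries in each of the 4 groups), HbHp, its complex with haptoglobin, at 200 µM (8 and 8 libraries at 24 h and 48 h) and 400 µM (4 and 5), and haptoglobin (Hp) alone at 400 µM (12 and 11). Hb, albumin, Hp and hemopexin were human proteins, so every treated group received protein of another species, and no group received albumin or hemopexin without heme. The labels do not tie libraries to animals, and the p-values below measure the spread between libraries, which may share an animal.

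Cells build cholesterol from acetyl-CoA through mevalonate, farnesyl diphosphate, squalene and lanosterol. The transcription factor SREBP-2 (gene Srebf2) raises the genes of this route when sterol in the endoplasmic reticulum runs low, whereas SREBP-1 (Srebf1) acts more on fatty acid synthesis. Scap escorts both factors to their activation and the Insig proteins hold them back. The brain makes its own cholesterol because the blood-brain barrier keeps lipoproteins out, with astrocytes and myelinating oligodendrocytes as large producers.

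Several of these genes are textbook targets of SREBP. The 250 bases before the start of 4 of them are shown, chosen after their values were seen, because Hmgcs1, Lss and Cyp51 differed between heme-albumin and hemeHpx while Fasn differed after HbHp. The sequences are RefSeq promoters on mouse build GRCm38.p6, written 5′ to 3′ on the gene's strand, with capitals marking the searched letters. These were TCACNCCAC, a form of the sterol response element, and CCAAT, the box bound by NF-Y, each on both strands (ATTGG is CCAAT on the opposite strand). Hmgcs1 lies on the plus strand (window chr13:119690101-119690350), Lss on the plus strand (chr10:76531355-76531604), Cyp51 on the minus strand (chr5:4104698-4104947) and Fasn on the minus strand (chr11:120824548-120824797).
Hmgcs1: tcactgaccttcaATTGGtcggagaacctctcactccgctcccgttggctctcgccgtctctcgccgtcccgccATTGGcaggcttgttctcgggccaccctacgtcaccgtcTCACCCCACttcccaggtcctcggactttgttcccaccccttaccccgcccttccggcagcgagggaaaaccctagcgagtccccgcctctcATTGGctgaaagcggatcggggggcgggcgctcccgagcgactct
Lss: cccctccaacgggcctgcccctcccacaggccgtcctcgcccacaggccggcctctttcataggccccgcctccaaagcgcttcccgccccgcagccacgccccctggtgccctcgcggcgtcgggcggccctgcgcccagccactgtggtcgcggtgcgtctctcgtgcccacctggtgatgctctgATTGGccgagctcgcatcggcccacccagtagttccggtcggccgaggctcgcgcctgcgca
Cyp51: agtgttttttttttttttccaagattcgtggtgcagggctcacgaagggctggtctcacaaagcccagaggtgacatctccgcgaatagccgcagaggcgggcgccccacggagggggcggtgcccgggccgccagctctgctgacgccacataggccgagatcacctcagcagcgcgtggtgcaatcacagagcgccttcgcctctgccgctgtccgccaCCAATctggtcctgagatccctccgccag
Fasn: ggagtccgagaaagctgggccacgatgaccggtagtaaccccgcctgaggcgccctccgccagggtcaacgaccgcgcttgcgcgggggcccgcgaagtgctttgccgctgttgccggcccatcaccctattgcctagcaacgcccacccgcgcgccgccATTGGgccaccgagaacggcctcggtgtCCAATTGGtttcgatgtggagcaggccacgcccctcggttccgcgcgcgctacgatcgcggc
The table of promoters held 33 windows for 25 of the 32 genes. TCACNCCAC occurred in 1 of these 33 windows, that of Hmgcs1 (129 to 137 bases before the start), and in 1.05% of all 32851 windows of the same length. CCAAT occurred in 20 of the 33 windows (60.6%) and in 33.8% of all windows. In Fasn a pair of CCAAT matches on opposite strands overlapped. The motifs too were settled after matches had been looked at, and the shares are a description of letters, not of binding.

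Libraries of batch 1 held 11038484 to 44199060 counts, those of batch 2 32626873 to 54174784 and those of batch 3 15587938 to 38839614. Levels are given as CPM, a library's counts scaled to a common total after TMM normalization. Fold changes are on the log2 scale with their standard error (SE). The test was edgeR's quasi-likelihood F-test, p-values were adjusted after Benjamini and Hochberg over all tested genes, and the threshold was 0.05, and "rose" or "fell" is used for genes past that threshold. Shares of all genes called are given for the reported fit alone. Counts under other settings are therefore not read as particular to the list. None of the neuron, astrocyte, oligodendrocyte or microglia markers was at 0 in any group. Bulk libraries cannot tell fewer cells of a type from less RNA per cell.

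Heme-albumin raised 8 of the 18 enzymes of sterol synthesis at 200 µM and 9 of the 18 at 400 µM, while 3 of the 8 fatty acid genes fell at 400 µM. At 200 µM, 9 of the 32 genes rose and none fell, against 13.6% of all genes called (6.98% raised and 6.6% lowered). At 400 µM, 9 rose and 3 fell, against 29% of all genes called (14.7% raised and 14.3% lowered). The median change of the 32 genes was 0.13 at 200 µM and 0.09 at 400 µM, whereas over all tested genes it was -0.01 at both doses. The ninth gene raised at 200 µM was of the fatty acid group.

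Lss, lanosterol synthase, closes the ring system of the sterols and showed the clearest separation. Its level was 40.7 to 51.1 CPM in the controls (median 49.1), 57.2 to 66.2 at 200 µM heme-albumin (median 63.1) and 55.4 to 75.6 at 400 µM (median 63.1). Every heme-albumin library of these 2 doses lay above every control, and the change was 0.38 (SE 0.05, adjusted p = 1.2e-07) and 0.45 (SE 0.05, adjusted p = 2.2e-10). Dhcr7, the reductase of the last step to cholesterol, had 55.9 to 63.98 CPM in the controls (median 62.3), 66.1 to 80.5 at 200 µM (median 70.9) and 60.4 to 82.3 at 400 µM (median 76.9). Its range at 200 µM was clear of the controls (change 0.25, SE 0.05), and at 400 µM the ranges met (change 0.31, SE 0.05). The Lss and Dhcr7 calls held under every alternative run for heme-albumin against control, as did those of Cyp51, Msmo1, Sqle, Fdps and Mvd.

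Further along the same route, Cyp51, the P450 enzyme that demethylates lanosterol and itself carries heme, had 74.8 to 148 CPM in the controls (median 100.1), 114 to 163 at 200 µM (median 127) and 112 to 169 at 400 µM (median 134). The groups overlapped through the highest controls, and Cyp51 rose by 0.30 (SE 0.09) and 0.35 (SE 0.09). Msmo1, a methylsterol oxidase, rose by 0.21 (SE 0.06) and 0.33 (SE 0.06). Sqle, squalene epoxidase, had 103 to 141 CPM in the controls (median 121), 126 to 161 at 200 µM (median 145) and 123 to 163 at 400 µM (median 140.2), and rose by 0.25 (SE 0.06) and 0.22 (SE 0.06).

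Among the 7 mevalonate and isoprenoid enzymes, Fdps, which makes farnesyl diphosphate, rose from a control median of 59.1 CPM (45.8 to 74.0004) to 77.1 at 200 µM (65.8 to 83.5) and 74.9 at 400 µM (59.6 to 89.7). Its changes were 0.38 (SE 0.09) and 0.34 (SE 0.09). Mvd, mevalonate diphosphate decarboxylase, had 17.6 to 30.3 CPM in the controls (median 21.7), 23.2 to 32.4 at 200 µM (median 30.2) and 21.5 to 32.2 at 400 µM (median 29.6), and rose by 0.35 (SE 0.10) and 0.31 (SE 0.10). Acat2, which condenses acetyl-CoA at the start of the route, rose at 200 µM by 0.25 (SE 0.07). Hmgcs1, HMG-CoA synthase, had 334 to 488 CPM in the controls (median 369), 396 to 509.7 at 200 µM (median 431) and 387 to 517 at 400 µM (median 466.4), and passed the threshold at 400 µM with a change of 0.25 (SE 0.06). Pmvk, phosphomevalonate kinase, also passed at 400 µM, with a control median of 24.5 CPM (17.1 to 30.5), a median of 30.5 at 400 µM (26.6 to 36.4) and a change of 0.36 (SE 0.12). Idi1, the isomerase that follows, had 10.2 to 23.6 CPM in the controls (median 12.98), 12.3 to 23.7 at 200 µM (median 14.6) and 10.7 to 19.7 at 400 µM (median 15.9), and did not pass.

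**Figure D1:**
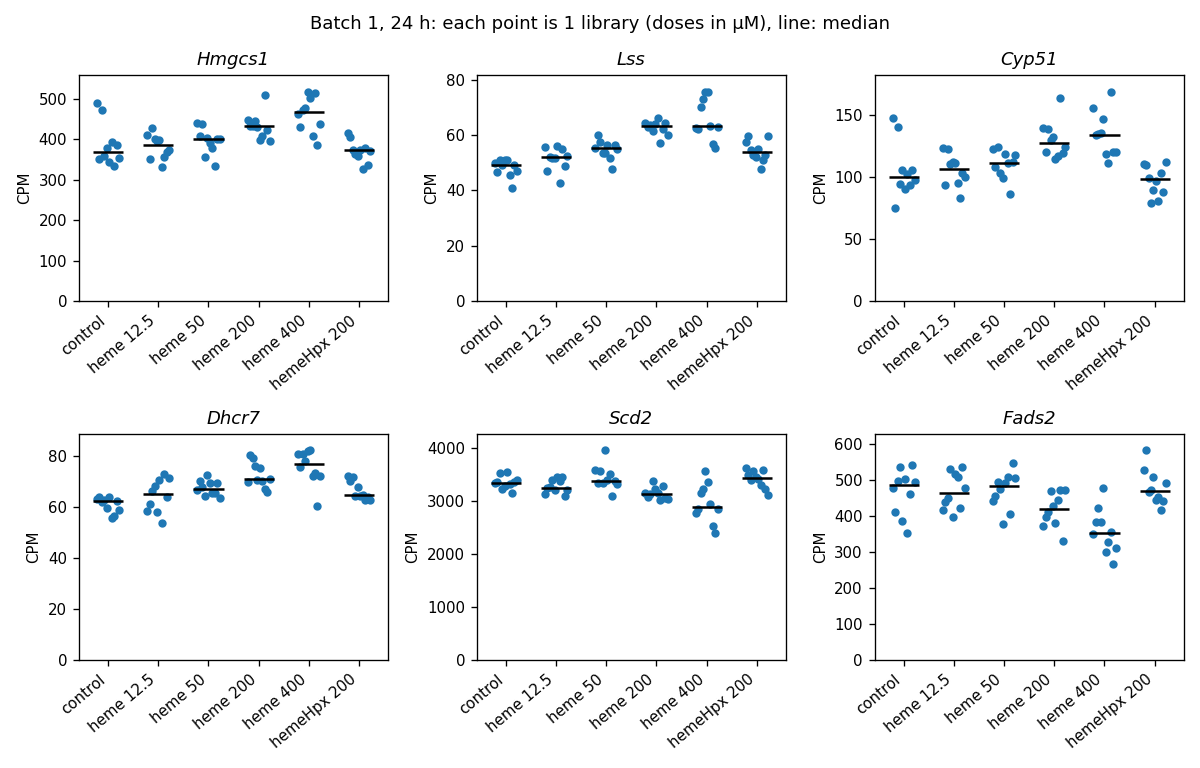
CPM (vertical axis, from 0) of 6 genes in each library of batch 1 at 24 h, by treatment along the horizontal axis with doses in µM; points are libraries and lines are group medians. Lss separates 200 and 400 µM heme-albumin from the controls without overlap, Cyp51 at 200 µM heme-albumin lies above all hemeHpx libraries, and Fads2 is lowest at 400 µM.

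None of the 6 regulators and sterol carriers passed the threshold against control at 200 or 400 µM heme-albumin. Insig1, itself an SREBP target, had medians of 61.3 CPM in the controls (48.4 to 71.4), 66.9 at 200 µM (60.6 to 83.3) and 67.9 at 400 µM (52.6 to 88.2). Stard4, a cytosolic sterol carrier, had medians of 18.2 CPM (15.8 to 24.0), 21.1 (18.8 to 28.2) and 20.1 (15.2 to 25.3). Srebf2 had medians of 216 CPM (157 to 269.8), 240.2 (196 to 282) and 234 (192 to 307), and Srebf1 had 225 (155 to 305), 232 (179.9 to 279.6) and 185 (139 to 279). In all 4 the groups overlapped widely.

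Of the 8 fatty acid genes, 3 fell and 0 rose at 400 µM. Fads2, the desaturase that opens the synthesis of polyunsaturated fatty acids, had 353 to 540.2 CPM in the controls (median 485) and 267 to 478 at 400 µM (median 353), and fell by 0.38 (SE 0.08). Fads1, the next desaturase, fell by 0.24 (SE 0.08). Scd2, a stearoyl-CoA desaturase of brain, had 3148 to 3549 CPM in the controls and 2400.1 to 3571 at 400 µM (median 2899), and fell by 0.18 (SE 0.05). At 200 µM Acly, which supplies cytosolic acetyl-CoA to both arms, rose by 0.12 (SE 0.04) as the lone call among these 8 genes. Fasn, fatty acid synthase, had medians of 479 CPM in the controls (423 to 589), 480.1 at 200 µM (432 to 552) and 469 at 400 µM (341 to 601). Scd1 had medians of 261 (234 to 308), 248 (209.8 to 276) and 240.4 (178 to 317).

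At the lower doses 0 genes passed in the reported fit. At 12.5 µM, 0 of 32 genes passed (2 at an unadjusted p under 0.05, 0 with DESeq2, 0.045% of all genes called with 0.0386% raised and 0.00643% lowered). At 50 µM, 0 passed (10 at an unadjusted p under 0.05, 1 with DESeq2, 0.463% of all genes called with 0.45% raised and 0.0129% lowered). With the oligodendrocyte level as a term 1 gene passed at 50 µM, and more passed with the code in the library name as a term, as given below. At 50 µM Lss had a median of 55.3 CPM (47.9 to 60.1), with a change of 0.19 (95% interval 0.09 to 0.28). From 200 to 400 µM 0 genes passed (3 at an unadjusted p under 0.05, 0 with DESeq2, 1.27% of all genes called with 0.707% raised and 0.559% lowered), and the interval for Lss was -0.03 to 0.17 and for Fads2 -0.38 to -0.06. The difference between these doses was not resolved for the list.

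Cell type markers moved with the heme-albumin groups. The summed microglia markers had 283 to 981 CPM in the controls, 189.5 to 445 at 200 µM and 179 to 551 at 400 µM, and 5 of 6 fell at 200 µM and 4 of 6 at 400 µM. The summed astrocyte markers had 7434 to 11627 CPM in the controls, 6281 to 10544 at 200 µM and 5352 to 9224 at 400 µM, and 3 and 4 of 6 fell. No oligodendrocyte marker passed at either dose (0 of 6), with sums of 9399.8 to 16564, 8102 to 13653 and 7728 to 14924 CPM. Their fitted values were below 0 for 6 of 6 at 200 µM (median -0.23) and 5 of 6 at 400 µM (median -0.19). All 3 oligodendrocyte precursor markers had a fitted value below 0 at both doses, and Vcan among them fell by 0.53 at 400 µM. The part of these shifts in the sterol and desaturase changes was not tested for microglia, astrocytes and precursors. With the oligodendrocyte level as a term, the counts of calls at 200 and 400 µM heme-albumin stayed within 1.5 times those above.

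**Figure D2:**
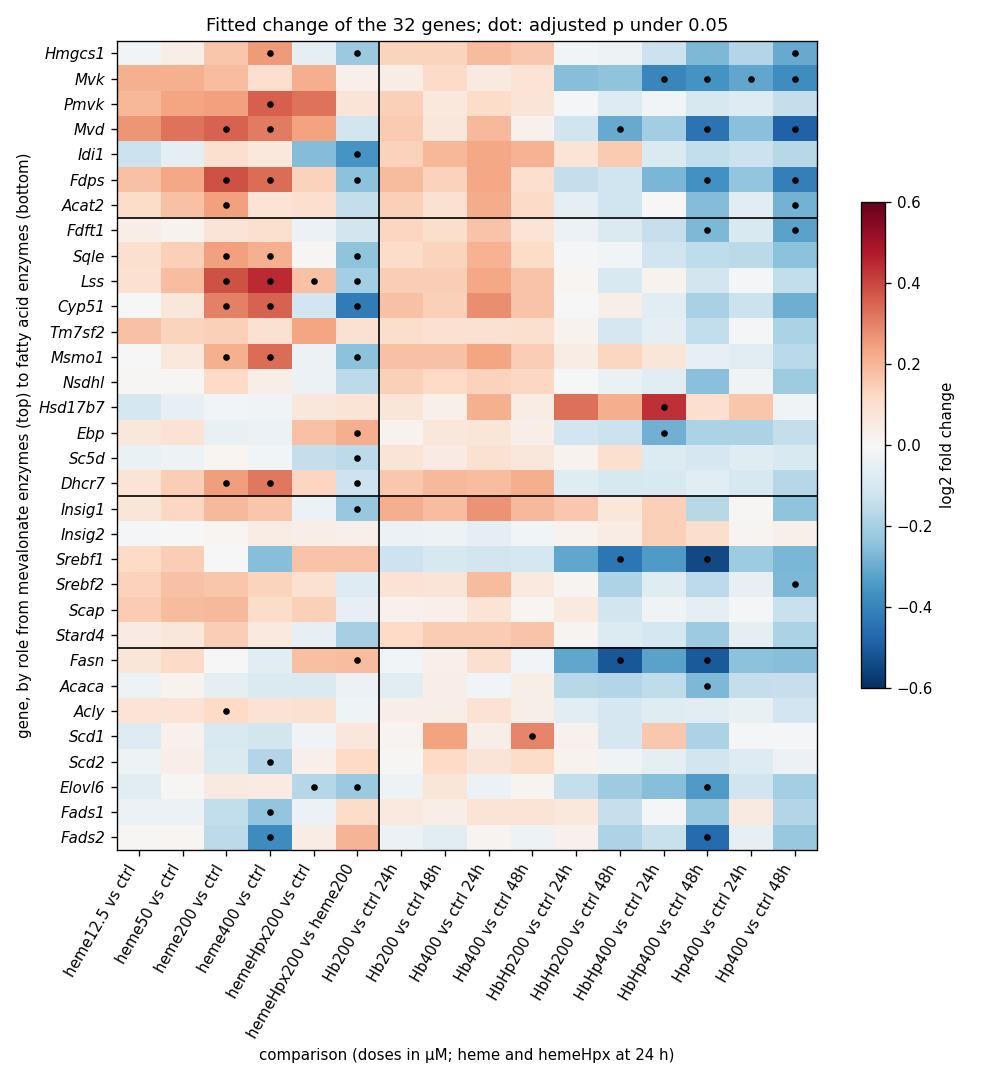
Fitted log2 fold change (colour) of the 32 genes (rows, ordered by role) in 16 comparisons (columns, doses in µM); dots mark an adjusted p under 0.05. Dots at 200 and 400 µM heme-albumin are red in the sterol rows, the 3 dots on desaturases at 400 µM are blue, and dots after HbHp and Hp at 48 h are blue.

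Against control, hemeHpx at 200 µM changed 2 of the 32 genes (8.2% of all genes called with 3.77% raised and 4.44% lowered). Lss rose by 0.17 (SE 0.05) to a median of 53.7 CPM (47.7 to 59.7), and the elongase Elovl6 fell by 0.17 (SE 0.05) to a median of 97.7 CPM (89.9 to 103) from 103 (99.0 to 132). Without a filter on low counts 0 genes passed, and once GC content and transcript length were corrected for, Elovl6 (-0.07) did not pass. With the code in the library name as a term more than 2 genes passed, as given below. The intervals against control were -0.29 to 0.06 for Cyp51 and -0.11 to 0.12 for Sqle.

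Compared directly with heme-albumin at 200 µM, hemeHpx left 11 genes lower and 2 higher (25.9% of all genes called with 13% raised and 12.9% lowered). Cyp51 had 79.3 to 112 CPM with hemeHpx (median 98.2) and 114 to 163 with heme-albumin, with no overlap, and differed by -0.42 (SE 0.09, adjusted p = 5.7e-04). Idi1 had 10.5 to 13.9 CPM with hemeHpx (median 12.3) and 12.3 to 23.7 with heme-albumin, and differed by -0.35 (SE 0.14). Msmo1 had 92.9 to 118 CPM with hemeHpx (median 98.1) and 112 to 142 with heme-albumin (median 118), with overlap, and differed by -0.25 (SE 0.06). Fdps differed by -0.25 (51.9 to 81.9 CPM with hemeHpx, median 65.02) and Sqle by -0.24 (103 to 141 CPM, median 119.5). Among the others, Insig1 by -0.23, Hmgcs1 by -0.22, Elovl6 by -0.22, Lss by -0.21, Sc5d by -0.16 and Dhcr7 by -0.13. Ebp, the sterol isomerase, was 0.22 higher (SE 0.08) and Fasn 0.18 higher (SE 0.07) with hemeHpx. Of the 11 lower genes, 9 were sterol synthesis enzymes.

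The count of this comparison moved with 1 library and with a marker term. The shares of all genes called under these other fits are not given, so the moves are not read as particular to the list. Without heme-albumin 200 µM replicate 8, the highest of its group for Hmgcs1, Idi1 and Stard4, 7 genes were lower and 0 higher. The oligodendrocyte markers were higher with hemeHpx (3 of 6 passed, sums of 9854 to 16110.4 CPM against 8102 to 13653), as were 5 of 6 microglia and 3 of 6 astrocyte markers. With the oligodendrocyte level as a term, 6 genes were lower and 2 higher, and the median change of the list moved from -0.09 to -0.01. These 2 higher genes were not Ebp and Fasn, which lost their calls with that term. With that term Idi1 differed by -0.18 (adjusted p = 0.44) and Insig1 by -0.05 (adjusted p = 0.68), and both calls were also lost without replicate 8 and without a filter on low counts. The calls of Fdps, Sc5d, Ebp and Fasn were lost with that term and without replicate 8 as well. Cyp51, Msmo1, Sqle, Hmgcs1, Elovl6 and Lss passed under every alternative run.

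Genes of related lists went both ways at 400 µM heme-albumin, where 29% of all genes were called. The SREBP processing gene Ube2g2 rose by 0.31 and Erlin2 fell by 0.17. Among 12 genes of sterol uptake, esterification and hydroxylation, Scarb1 and Lrp8 rose (by 0.24 and 0.20) while Ch25h, which makes an oxysterol, fell by 0.88 and Soat1, which esterifies cholesterol, fell by 0.40. Of 7 genes of LXR and sterol export, Nr1h2 rose by 0.27 while Nr1h3 fell by 0.31 and Abca1, the cholesterol exporter, fell by 0.26. Of 21 other lipid genes 3 rose and 5 fell, and the 4 with the largest changes were Gpam (fell by 0.67), Mlxipl (fell by 0.59), Acsl6 (fell by 0.56) and Acsl3 (fell by 0.40). Between hemeHpx and heme-albumin at 200 µM, where 25.9% of all genes were called, Ch25h was higher by 1.29 and Abcg1 by 0.53 with hemeHpx, and the SREBP processing genes Erlin1, Rnf139 and Mbtps2 were lower by 0.33, 0.27 and 0.26.

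Free Hb gave 1 call over 4 comparisons with control. At 200 µM 0 of 32 genes passed at 24 h (10 at an unadjusted p under 0.05, 0 with DESeq2, 0.0971% of all genes called with 0.0789% raised and 0.0182% lowered) and 0 at 48 h (8 at an unadjusted p under 0.05, 0 with DESeq2, 0.31% of all genes called with 0.279% raised and 0.0304% lowered). At 400 µM and 24 h 0 passed (17 at an unadjusted p under 0.05, 0 with DESeq2, 0.522% of all genes called with 0.474% raised and 0.0486% lowered), and 3 genes passed once the oligodendrocyte level was a term. The intervals there were 0.10 to 0.37 for Lss, 0.10 to 0.45 for Cyp51 and 0.04 to 0.34 for Hmgcs1. The fitted value of all 18 sterol enzymes was above 0 in each of the 4 comparisons, which share controls at each time. Of all genes 48.3% to 54.4% were above 0. The 18 enzymes varied together between libraries of a group (median correlation 0.66, described below), so their signs are not independent. At 400 µM and 48 h Scd1 was the sole gene past the threshold (0.29, SE 0.08, 0.601% of all genes called with 0.486% raised and 0.115% lowered), with 136 to 288 CPM (median 213) against 110.2 to 213 in the controls (median 190.0), and this call was lost under 9 of 12 other settings, among them RLE scaling and no filter on low counts. Hmgcs1 had medians of 499 CPM in the controls (429 to 578), 529.7 with 200 µM Hb (431 to 714) and 544 with 400 µM Hb (423 to 783) at 24 h, with full overlap.

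HbHp was fitted with batch and round as terms, where round stands for the code E1 or E2 in the library names. At 200 µM and 48 h 3 of the 32 genes (9.4%) fell and none rose. Of all genes 11.9% were called there, with 7.04% raised and 4.85% lowered. With 3 genes called, of which Mvd did not pass without replicate 1 (given below), these shares are not read as particular to the list. At 400 µM and 48 h 9 fell and none rose (11.9% of all genes called with 7.39% raised and 4.56% lowered). Fasn had 439.9 to 522 CPM in the 48 h controls (median 489) and 116 to 423 with 200 µM HbHp (median 375). At 400 µM HbHp its 5 libraries had 369, 339.9, 354, 329 and 341 CPM. No library of either HbHp group reached the lowest control, and the changes were -0.51 (SE 0.12) and -0.51 (SE 0.13). Srebf1 had 145 to 221 CPM in the controls (median 181), 69.5 to 165 with 200 µM HbHp (median 131) and 108, 134, 118, 115 and 133 in the 5 libraries with 400 µM. It fell by 0.43 (SE 0.12) and 0.54 (SE 0.13), and at 400 µM all 5 libraries were below every control.

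Mvd had 24.4 to 35.5 CPM in the 48 h controls (median 29.2), 21.99 to 26.7 with 200 µM HbHp (median 24.8) and 28.3, 19.3, 19.9, 20.0 and 23.7 in the 5 libraries with 400 µM. It fell by 0.30 (SE 0.10) and 0.44 (SE 0.11), with overlap in both. The other genes that fell at 400 µM were Mvk, Fdps and Fdft1 of the sterol route, and Acaca (acetyl-CoA carboxylase), Elovl6 and Fads2 of the fatty acid arm, by 0.27 to 0.46. The count at 400 µM moved with single libraries, to 14 without replicate 1 and to 5 without replicate 4. Without HbHp 200 µM replicate 1, which was far below its group for Fasn, the changes at 200 µM were -0.39 for Fasn (adjusted p = 0.0024) and -0.35 for Srebf1 (adjusted p = 0.045), and Mvd no longer passed (adjusted p = 0.051).

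Hp alone gave falls at 48 h as well. Of 32 genes 7 fell and none rose (10.8% of all genes called with 4.88% raised and 5.88% lowered): Mvd by 0.49 (SE 0.09), Fdps by 0.41, Mvk by 0.37, Fdft1 by 0.32, Hmgcs1 by 0.30, Acat2 by 0.28 and Srebf2 by 0.27. Srebf2 kept its call in 5 of 11 other settings. With Hp at 48 h the astrocyte marker Aldh1l1 fell by 0.87 (1 of 6 astrocyte markers lowered), while 0 of 6 oligodendrocyte and 0 of 6 microglia markers were lowered. Of 3 oligodendrocyte precursor markers Vcan fell by 0.22, while 2 had a fitted value above 0 (median of the list 0.11). The marker sums were 5476 to 8056 CPM for astrocytes, 10356 to 20529 for oligodendrocytes and 376 to 2132 for microglia. The count with the oligodendrocyte level as a term is given below, and the part of the other cell types was not tested. Hmgcs1 had 274 to 384 CPM with Hp (median 319) against 322 to 535 in the controls (median 429). Fasn had 377 to 452 CPM with Hp (median 410.1). Compared with each other at 400 µM, HbHp and Hp differed in 0 genes at 24 h (2 at an unadjusted p under 0.05, 0 with DESeq2, 0.619% of all genes called with 0.522% raised and 0.0971% lowered) and in 0 at 48 h (3 at an unadjusted p under 0.05, 0 with DESeq2, 1.44% of all genes called with 1.03% raised and 0.413% lowered). At 48 h the interval of that difference was -0.47 to -0.02 for Fasn, -0.50 to -0.04 for Srebf1 and -0.14 to 0.23 for Mvd. The Fasn ranges of these 2 groups did not overlap, although Fasn did not pass (adjusted p = 0.27). The comparisons of Hp and HbHp with control at 48 h share the same 9 controls. All Hp and HbHp libraries were of batch 3, while most of these controls were of batch 2.

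At 24 h, HbHp at 200 µM changed 0 of 32 genes (5 at an unadjusted p under 0.05, 0 with DESeq2, 1.93% of all genes called with 1.66% raised and 0.273% lowered). HbHp at 400 µM changed 3 (5.15% of all genes called with 3.1% raised and 2.06% lowered). Hsd17b7, a sterol reductase, had 93.4, 97.6, 93.9 and 104 CPM against 59.5 to 91.5 in the controls and rose by 0.44 (SE 0.13). Mvk had 24.3, 25.05, 23.6 and 32.1 CPM against 30.7 to 39.2 and fell by 0.39 (SE 0.11). Ebp had 31.7, 31.5, 32.002 and 33.02 CPM against 29.2 to 39.9 (median 31.4), so that the levels overlapped with near-equal medians while the fit with batch and round gave -0.29 (SE 0.08). The Hsd17b7 call was lost without any of the 4 libraries, and those of Mvk and Ebp without any of replicates 1, 2 and 3. Hp at 24 h lowered 1 gene, Mvk, by 0.31 (SE 0.08, 0.704% of all genes called with 0.474% raised and 0.231% lowered). That call was kept in 4 of 11 other settings, with changes between -0.48 and -0.20.

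Directly against Hb at 200 µM, HbHp gave 0 calls at 24 h (8 at an unadjusted p under 0.05, 1 with DESeq2, 0.607% of all genes called with 0.413% raised and 0.194% lowered) and 6 falls at 48 h (4.98% of all genes called with 3.14% raised and 1.84% lowered). Fasn was lower by 0.54 on the log2 scale (-0.54, SE 0.12), Mvd by -0.37, Mvk by -0.35, Scd1 by -0.34, Dhcr7 by -0.29 and Elovl6 by -0.28. Dhcr7 had 51.5 to 70.8 CPM with HbHp (median 66.8) and 71.5 to 93.2 with Hb (median 79.2), without overlap. Without HbHp 200 µM replicate 1, 4 genes passed, and Dhcr7 and Scd1 did not (adjusted p = 0.055 and 0.083).

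**Figure D3:**
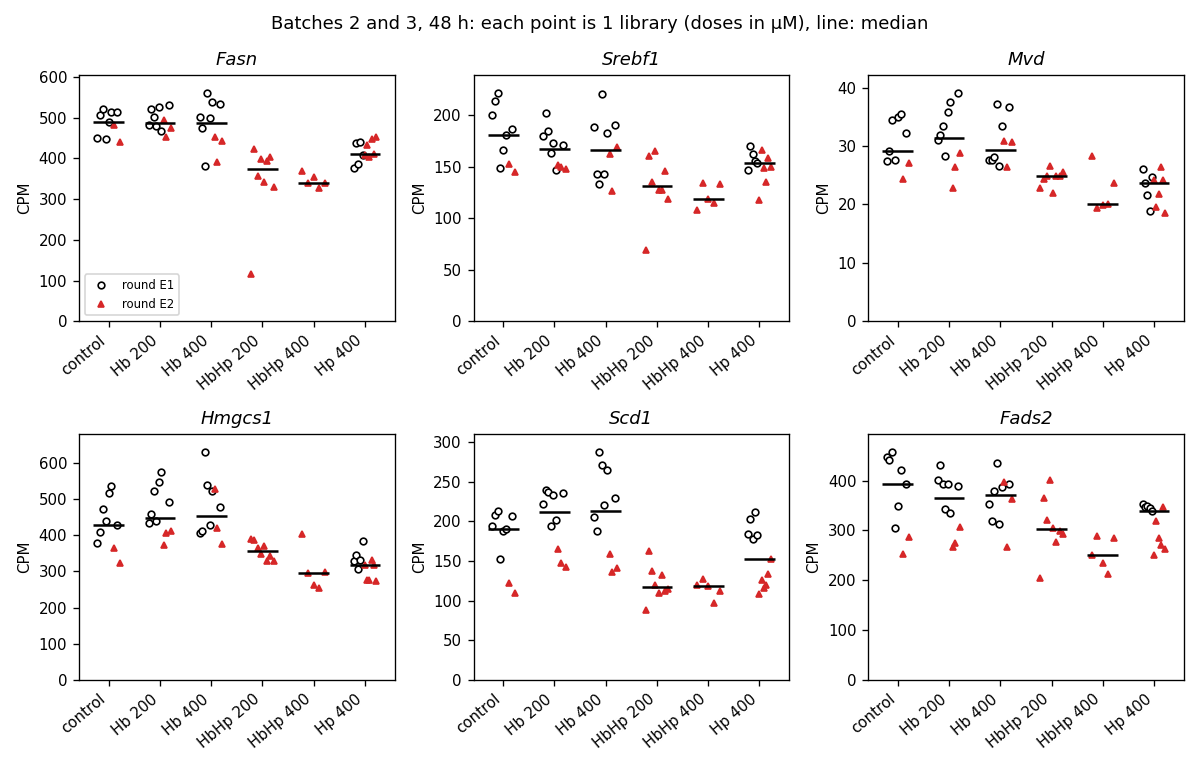
CPM (vertical axis, from 0) of 6 genes in each 48 h library of batches 2 and 3 by treatment, doses in µM; open circles are round E1, red triangles round E2, and lines are group medians. All HbHp libraries are round E2, and for Fasn they lie below all controls, while for Mvd and Hmgcs1 the few round E2 controls lie near them.

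All labelled HbHp libraries came from batch 3 and from round E2, whereas 7 of the 9 controls at 48 h were from E1 and most were of batch 2. Within round E2 the 2 controls had 439.9 and 483 CPM of Fasn, above all HbHp libraries, 24.4 and 27.1 CPM of Mvd, within the HbHp range at 400 µM, and 322 and 363 CPM of Hmgcs1. With a fit of round E2 alone, or of batch 3 alone, 0 of 32 genes passed for HbHp at 200 or 400 µM or for Hp against control at 48 h, nor for HbHp against Hb. Fitted changes in E2 alone were -0.43 for Fasn at either HbHp dose, -0.23 and -0.35 for Srebf1, and -0.19 and -0.34 for Mvd at 200 and 400 µM. With batch as a term but without the round, 15 genes fell at 200 µM HbHp, 18 at 400 µM HbHp and 21 against Hb. The shares of all genes called under these other fits are not given, so the counts are not read as particular to the list. Treatment cannot be fully told apart from round or batch with 2 controls of E2 at 48 h, of which 1 was of batch 3. Microglia markers summed to 303 to 2154 CPM in the 48 h controls, 973 to 1686 with 200 µM HbHp and 687 to 1915 with 400 µM HbHp, of which 0 of 6 passed at 200 µM and 1 fell at 400 µM. Astrocyte markers summed to 5533 to 10208, 5361 to 9561 and 4273 to 6573 CPM, with 1 and 2 of 6 lowered. Of the 6 oligodendrocyte markers, 4 had a fitted value below 0 at 200 µM HbHp (median -0.09, 0 passed) and 6 at 400 µM (median -0.29), where Mobp fell by 0.45, with sums of 9602 to 19347 CPM in the controls, 15348 to 20526 at 200 µM and 13334 to 19869 at 400 µM. Of 3 precursor markers Vcan fell by 0.34 and 0.41, while 1 had a fitted value above 0 at each dose (0.07 and 0.23). Counts that moved with the oligodendrocyte level as a term are given below. The part of microglia, astrocytes and precursors in the changes at 48 h was not tested.

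**Figure D4:**
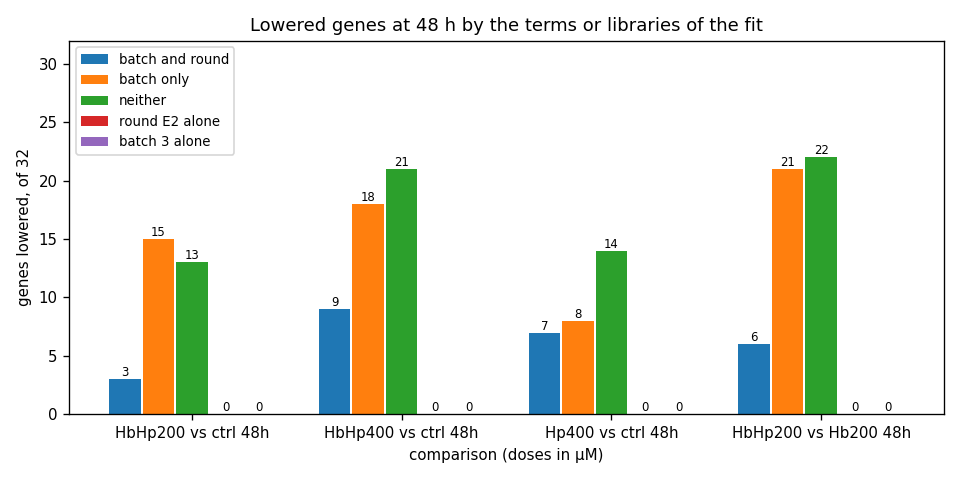
Number of the 32 genes lowered at 48 h (vertical axis, of 32) in 4 comparisons (groups of bars, doses in µM) under 5 fits (colours, number above each bar). For 400 µM HbHp against control the bars read 9 with batch and round as terms, 18 with batch alone, 21 with neither, and 0 within round E2 or batch 3. The shares of all genes called under each fit are not shown.

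In untreated slices, Idi1 was lower at 48 h than at 24 h by -0.35 (SE 0.10) and Elovl6 by -0.26 (SE 0.07), with 2 of 32 called beside 4.5% of all genes called (1.66% raised and 2.85% lowered). Over 12 other settings Idi1 kept its call in 5, with changes between -0.65 and -0.19, and Elovl6 in 8. Both calls were lost with the code in the library name as a term. Idi1 had 27.9 to 47.7 CPM at 24 h (median 39.001) and 17.3 to 40.8 at 48 h (median 31.6). The change of effect between 24 h and 48 h was not past the threshold for any of the 32 genes with 200 µM Hb (0, with 1 at an unadjusted p under 0.05 and 0 with DESeq2) or 200 µM HbHp (0, with 0 at an unadjusted p under 0.05 and 0 with DESeq2). Of all genes 0% were called for 200 µM Hb and 0.0121% for 200 µM HbHp. The lack of calls is therefore not read as particular to the list.

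Libraries of the same group also varied together in these genes. After the mean of each group, and in batches 2 and 3 of each group within its batch and round, was removed, the median correlation between the 18 sterol enzymes was 0.32 over the 60 libraries of batch 1 and 0.66 over the 96 libraries of batches 2 and 3 that were not alone in their batch and round. Among the 8 fatty acid genes it was 0.39 and 0.43, and between both sets 0.25 and 0.17. With Sqle, the correlation was 0.80 and 0.89 for Cyp51, 0.43 and 0.77 for Elovl6, and -0.13 and 0.09 for Fasn. The points share library preparation and scaling, and these values are a description.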

How the data were processed

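RNA was extracted from the slices with the Lexogen SPLIT kit and sequenced as TruSeq mRNA libraries. The deposited files hold whole-number counts per Ensembl gene for each library, made by the authors with featureCounts on GRCm39 per the submitters' processing notes. The aligner, annotation and strand setting are not given in the sources used here. Groups followed the treatment labels. The 200 µM hemeHpx libraries are titled as haptoglobin but tagged, named and described in the study's methods as hemopexin, which was followed. 21 libraries with conflicting labels entered no comparison. No replicate pair agreed within sampling noise (lowest chi-square per degree of freedom 3.48 in batch 1 and 5.73 in batches 2 and 3).

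Genes were filtered with filterByExpr (smallest count 10, smallest total 15), which left 15554 genes in batch 1 and 16473 in batches 2 and 3. Counts were scaled by TMM and tested with edgeR 4.0.16 (quasi-likelihood, R 4.3.3), with Benjamini-Hochberg adjustment over all tested genes. Batch 1 was fitted by group, and the 107 labelled libraries of batches 2 and 3 by group, batch and round, the code E1 or E2 in the library names. The study's methods name DESeq2 with shrunken fold changes and no covariate. DESeq2 1.42.0 served as an alternative, beside other scaling, filters, batch terms and left-out libraries. Intervals are 95%, from the SE by the normal approximation. The library codes shared between groups were not taken to pair the samples. Scripts were checked on simulated counts. The 32 genes, the related lists and the markers were chosen with earlier results of these data known. All 32 genes could be named. Library values were given for 10 preset genes and for up to 5 called genes with the largest change per comparison, and related genes at most 4 per list and comparison. Others were named after their values were seen. Promoters came from RefSeq (GRCm38.p6) by gene symbol. One gene of the related lists is not reported here.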

Additional observations from a re-analysis of the deposited data

Results flagged for a closer look

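Of 176 sets of 4 to 10 libraries tested for a single library far from the rest (Dixon's test on the log2 scale), 10 were flagged, where chance flags about 1 in 20. In the 200 µM heme-albumin group, replicate 8 was the highest for Hmgcs1 (log2 value 8.995, 509.7 CPM, next 448), Idi1 (4.5981, 23.7 CPM, next 17.5) and Stard4 (4.8431, 28.2 CPM, next 23.2). In the same group replicate 9 was the lowest for Srebf2 (7.6182, 196 CPM, next 233).

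In the 48 h group of 200 µM HbHp, replicate 1 was the lowest for Srebf1 (log2 value 6.1284, 69.5 CPM, next 119), Srebf2 (6.4752, 88.5 CPM, next 159), Fasn (6.861, 116 CPM, next 329) and Scd2 (10.9209, 1938 CPM, next 3049). Replicate 5 of 200 µM Hb at 48 h was the highest for Scd2 (11.9674, 4004 CPM, next 3534). Replicate 4 of 400 µM HbHp at 24 h was the highest for Srebf1 (7.1366, 140.2 CPM, next 122).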

How the results depend on the processing

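The counts of called genes among the 32 were recomputed under every alternative. Of these counts 200 stayed within 1.5 times the reported one and 69 did not. The shares of all genes called under the alternatives are not given, so a moved count is not read as particular to these genes. For single genes called in a comparison, 151 values lost their call and 0 changed sign, while the others kept both. For most of the moves the cause was not tested. DESeq2 called 1 gene at 50 µM heme-albumin, 1 for HbHp against Hb at 200 µM and 24 h, and 5 for control at 48 h against 24 h. RLE scaling called 0 for 400 µM Hb at 48 h. Without a filter on low counts, hemeHpx against control, 400 µM Hb at 48 h and Hp at 24 h had 0 calls.

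With the replicate block (the code in the library name), 50 µM heme-albumin had 2 calls, hemeHpx against control 8 (6 raised and 2 lowered) and control at 48 h against 24 h 0. Same-coded libraries had median correlations with control of 0.31, 0.01 and -0.02 for heme-albumin at 200 and 400 µM and hemeHpx, and of 0.17 and 0.40 for 200 µM Hb at 24 h and 48 h. The medians were 0.25 for hemeHpx with heme-albumin, and 0.09 and 0.14 for HbHp at 200 and 400 µM with Hp at 48 h, against -0.11 to 0.00 for other codes. In each of the 8 pairs of groups checked at least 1 pair of libraries was below 0.1 (down to -0.66 for hemeHpx with control). Such low single values do not exclude a pairing. The medians lay above those of other codes for 200 µM heme-albumin and Hb with control and for hemeHpx with heme-albumin. For 400 µM heme-albumin and hemeHpx with control they were near those of other codes. The labels name no shared animal, so the codes were not taken to pair the samples, and whether they do was not settled. The replicate block moved no other count by over 1.5 times.

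With batch but not the round as a term, 2 and 15 genes were called for 200 µM HbHp at 24 h and 48 h, 18 for 400 µM HbHp at 48 h, 8 and 21 for HbHp against Hb at 24 h and 48 h, 0 for Hp at 24 h, 0 for 400 µM Hb at 48 h and 1 between control times. With neither term these were 3, 13, 22, 13, 23, 0, 0 and 1, and 400 µM HbHp at 24 h had 7 and Hp at 48 h 14. In round E2 alone, 1 gene was called for 200 µM HbHp at 24 h and 1 for HbHp against Hp at 48 h, with 0 for 200 and 400 µM HbHp, Hp and 400 µM Hb at 48 h, Hp at 24 h, HbHp against Hb at 48 h and control times. In batch 3 alone, 4 were called for HbHp against Hb at 24 h and 1 for 400 µM HbHp at 24 h, with 0 for HbHp, Hp and 400 µM Hb at 48 h, Hp at 24 h, HbHp against Hb at 48 h and control times. In batch 2 alone, 400 µM Hb at 48 h had 0 and control times 1. These fits of 1 round or batch hold fewer libraries.

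Chosen after seeing the data, a correction for GC content and transcript length gave 1 call for hemeHpx against control, 0 for 400 µM Hb at 48 h, 1 for 200 µM HbHp at 24 h, 5 for 400 µM HbHp at 24 h, 11 for Hp at 48 h and 1 for HbHp against Hb at 24 h. The oligodendrocyte level as a term, also added later, gave 1 at 50 µM heme-albumin, 1 between 400 and 200 µM, 8 for hemeHpx against heme-albumin, 3 and 2 for 400 µM Hb at 24 h and 48 h, 2 for 200 µM HbHp at 24 h, 11 for Hp at 48 h, 2 for HbHp against Hp at 48 h and 0 between control times. Leaving out 1 library of 400 µM HbHp gave 0 to 2 calls at 24 h and 5 to 14 at 48 h. Without heme-albumin 200 µM replicate 8, hemeHpx against heme-albumin had 7. That library and HbHp 200 µM replicate 1 at 48 h were picked because they stood apart, and no other library of the groups of 8 or more was left out.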

Other observations

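The labels of 20 libraries disagree, with a tag naming a complex of Hb with hemopexin at 400 µM and a title naming haptoglobin, and they entered no comparison. In the 14 of round E1, Fasn ranged from 299 to 545 CPM (median 425), Srebf1 from 89.2 to 130.2 (median 114), Hmgcs1 from 150.0 to 504 (median 330.0), Idi1 from 7.83 to 37.5 (median 22.8) and Sqle from 54.6 to 138 (median 103). In the 6 of round E2, Fasn ranged from 259 to 402 CPM (median 345), Srebf1 from 66.5 to 108 (median 96.1), Hmgcs1 from 139.8 to 397 (median 263), Idi1 from 7.96 to 26.9 (median 17.8) and Sqle from 56.2 to 107.1 (median 78.9). One control with conflicting times had 511 CPM of Fasn, 155 of Srebf1 and 413 of Hmgcs1.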
